A study of Rattus norvegicus with 16 samples.

Results

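The femur of the inbred rat strain LEW (Lewis) was compared with that of the inbred strain COP (Copenhagen 2331) on 8 expression arrays, 4 per strain, out of 16 in the study. The 8 arrays were chosen by their strain labels and not by any measured value. The study measured total RNA from the proximal femur, the hip end of the thigh bone, in 4-week-old rats of 4 inbred strains, F344, LEW, COP and DA, with 4 arrays per strain. Its stated interest is a chromosome 4 locus for skeletal traits found in a cross of F344 and LEW. The labels name no treatment, engineered allele or sex for LEW or COP, so strain is the only stated difference between these groups. Nor do they say that each replicate was a rat of its own. The p-values rest on the spread among arrays of a strain, pooled over all 16 arrays, and this spread may therefore be technical.

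The proximal femur of a young rat holds growth plate cartilage, newly mineralised bone and red marrow, so its RNA mixes that of chondrocytes, osteoblasts, osteoclasts and osteocytes with that of blood-forming cells. Marrow makes red cells, granulocytes, monocytes, platelets and B cells. Interferons act on many of these cells through STAT and IRF transcription factors, which bind short GAAA-containing elements upstream of antiviral genes.

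Of 43 defining cell type markers, 35 had a named probe set and 31 of these passed the filter on low signals (a mean over all 16 arrays of at least 173.5). Markers of the labelled tissue were high on all 8 arrays: the bone collagen Col1a1 read 56189.7 to 66185.1, the cartilage collagen Col2a1 47470.2 to 58247.0 and the osteoclast phosphatase Acp5 25451.2 to 36504.4. Of 5 genes of other tissues chosen because they should be near background, the liver genes Alb and Apoa1 and the kidney gene Umod read at most 115. The brain genes Mbp and Gfap did not stay low. They passed the filter and read 1008.7 to 1501.2 and 230 to 616. The muscle actin Acta1 read 52857.5 to 59047.8, so RNA of attached muscle was present in both strains. Log2 signals correlated at 0.977 to 0.987 within LEW, 0.983 to 0.988 within COP and 0.962 to 0.972 between them.

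Arrays of the same strain differed in the summed level of tissue lists. The mean of the cartilage list on an array, with each gene centred over the 16 arrays, was -0.36, 0.04, -0.22 and 0.41 in LEW replicates 1 to 4 and 0.35, 0.09, -0.10 and -0.41 in COP replicates 1 to 4. LEW replicate 4 and COP replicate 1 had the most cartilage signal, and LEW replicate 1 and COP replicate 4 the least. LEW replicate 1 also had the highest erythroid and muscle list means of the 8 arrays, and LEW replicate 4 the lowest erythroid mean of LEW. Counts of called genes are therefore also given without LEW replicates 1 and 4 where they matter. This keeps COP replicates 1 and 4 in the fit and leaves fewer LEW arrays, so a count can fall through lost power alone.

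Genes were called in both directions in similar numbers. Each difference below is LEW minus COP on the log2 scale, so a negative value is a lower signal in LEW, and a gene was called at a limma adjusted p under 0.05. Of 10548 genes, 1490 (14.1%) were called, 676 higher in LEW (6.41%) and 814 lower (7.72%). Of 18625 probe sets, 2559 (13.7%) were called, 1164 higher and 1395 lower. The LEW and COP arrays did not overlap for 3234 probe sets (17.4%), of which 2208 were called. With each array centred on its median, which shifted the median difference of genes by 0.037, the split of called probe sets was 1377 higher and 1087 lower, 55.9% higher against 45.5%. Most differences were small: the median absolute difference of called genes was 0.42 with a median SE of 0.09, and 130 genes were called with at least a 2-fold change, 59 higher and 71 lower. All 1490 kept their direction when any of the 8 arrays was left out, and 1000 (67.1%) stayed called each time. Without LEW replicates 1 and 4, 497 genes were called higher and 559 lower. With the spread taken from the LEW and COP arrays alone, 558 were called higher and 694 lower.

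**Figure D1:**
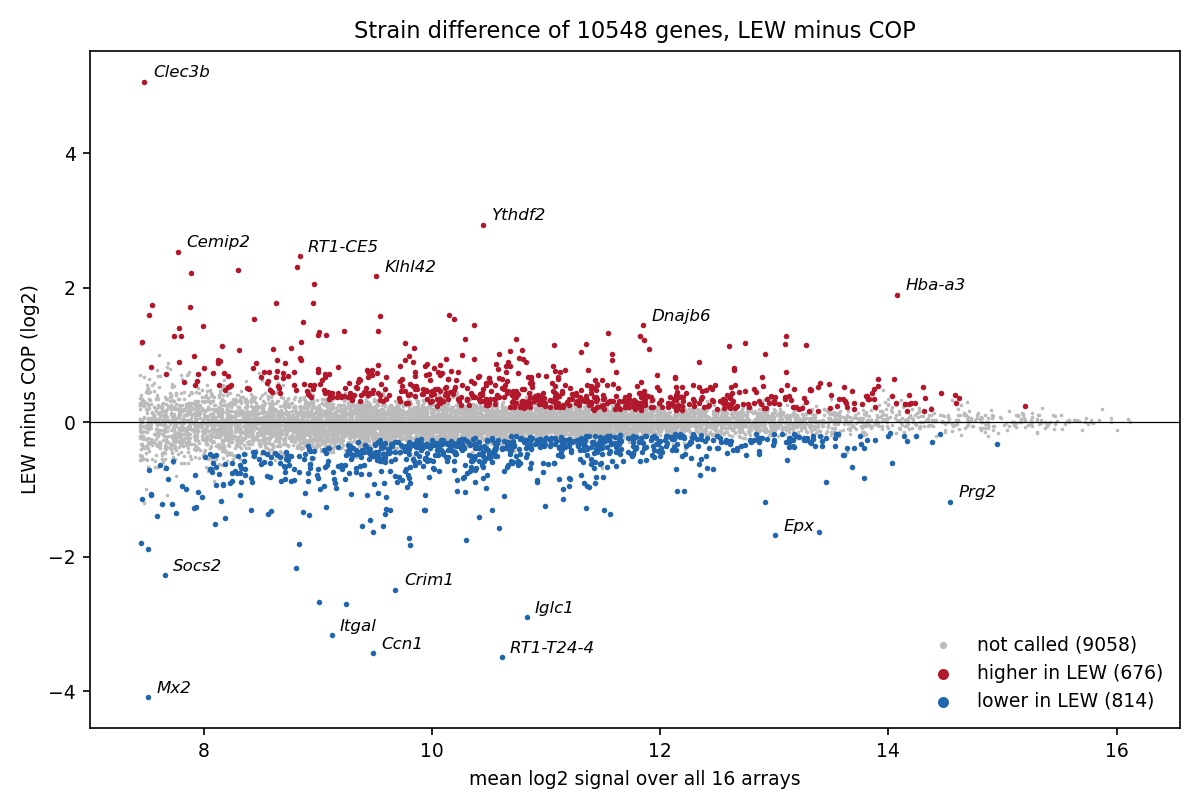
LEW minus COP log2 difference of each of 10548 genes (vertical axis) against its mean log2 signal over 16 arrays (horizontal axis), with 676 called higher in LEW in red and 814 called lower in blue. Clec3b at 5.07 and Mx2 at -4.09 are the extremes.

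The largest rises in LEW were found in genes of unlike function. Clec3b, which encodes tetranectin, a plasminogen-binding lectin found in mineralising tissue, read 978, 1012.3, 828 and 803 in LEW and 32.8, 19.5, 75.1 and 10.7 in COP (log2 difference 5.07, SE 0.47, limma adjusted p = 9.67e-08). Every LEW array was above every COP array, as the rule for naming the largest changes required. The COP arrays lay below the filter's signal, where a fold is poorly determined. Ythdf2, a reader of methylated adenosine in RNA, read 6448.8, 6488.2, 6481.8 and 7506.4 in LEW and 926, 894, 780 and 921 in COP (log2 difference 2.94, SE 0.11, limma adjusted p = 4.62e-13). On this probe set LEW stood apart, since F344 averaged 762 and DA 860, but the other probe set of Ythdf2 gave 0.60, a much smaller rise. Whether LEW and COP differ in sequence under the probes was not tested for any gene, so the difference of a single probe set may not be one of RNA level. Cemip2, a cell-surface hyaluronidase, rose by 2.54, from a mean of 100 ± 37.1 in COP to 553 ± 65.4 in LEW (SD, n = 4). Ephx2, the soluble epoxide hydrolase, and Prcp, a carboxypeptidase that cleaves angiotensin peptides, rose by 2.27 and 2.05. For Clec3b, Cemip2, Ephx2 and Prcp alike the F344 mean lay nearer LEW and the DA mean nearer COP.

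Further large rises were those of Anks1b (2.22), Drg1 (1.78), Gstt3 (1.77), Haghl (1.75), Padi4 (1.72) and Shld1 (1.59). Gstt3 is a glutathione transferase, Padi4 the enzyme that citrullinates histones in neutrophils and Shld1 a subunit of the shieldin complex of DNA repair. Lack of overlap between the strains was a condition for naming these genes. Haghl was dim in COP, with a mean of 84.6 ± 35.7 (SD, n = 4).

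The largest falls in LEW included genes of immune cells and of the matrix. Mx2, an interferon-induced GTPase, read 81.1, 46.8, 73 and 75.7 in LEW and 746, 1302.4, 1076.1 and 1695.0 in COP (log2 difference -4.09, SE 0.28, limma adjusted p = 1.32e-09). COP was far above both other strains as well, with F344 at 67.3 and DA at 222. The LEW arrays and the F344 mean of Mx2 lay below the filter's signal, where a fold is poorly determined. Mx2 passed the filter on a mean over all arrays that the high COP signals raised. Ccn1, a secreted matricellular protein, read 125, 116, 181 and 69.4 in LEW and 1077.4, 1086.4, 1215.8 and 1757.0 in COP (log2 difference -3.44, SE 0.22, limma adjusted p = 4.66e-10). Here LEW was the low strain, since F344 averaged 1304.5 and DA 1403.5. Itgal, the alpha chain of the leukocyte integrin LFA-1, had the same arrangement: 89, 128, 78 and 118 in LEW, 839, 1143.6, 966 and 744 in COP, 793 in F344 and 1324.2 in DA (log2 difference -3.17, SE 0.15, limma adjusted p = 4.42e-12).

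Iglc1, an immunoglobulin lambda constant region, fell by 2.90 on the log2 scale, from 4067.9 ± 653 in COP to 538 ± 30.6 in LEW (SD, n = 4). Crim1, a membrane protein that binds bone morphogenetic proteins, read 390, 346, 409 and 412 in LEW and 2199.4, 2117.6, 2342.2 and 2076.2 in COP (log2 difference -2.49, SE 0.1, limma adjusted p = 1.16e-12), with little spread inside either strain. Among the 15 largest falls were also the class I genes RT1-T24-4 (-3.49, a larger fall than that of Ccn1) and RT1-CE16 (-2.71) and the signalling inhibitor Socs2 (-2.28), each described below with its group. The rest of the 15 were Siglec5 (-2.68), Srsf3 (-2.17), Cd244l1 (-1.89), Mfap3 (-1.83), Fcrl2 (-1.81), Uhrf1 (-1.75) and Ldhc (-1.73). Siglec5 is a sialic acid-binding receptor of myeloid cells, Srsf3 a splicing factor, Uhrf1 a protein that maintains DNA methylation and Ldhc the testis form of lactate dehydrogenase. Of the 130 genes changed at least 2-fold, 21 had another kept probe set, and another was called in the same direction for 11 and in the opposite direction for 0. Over all called genes the count was 121 of 410 for the same direction and 30 for the opposite one.

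**Figure D2:**
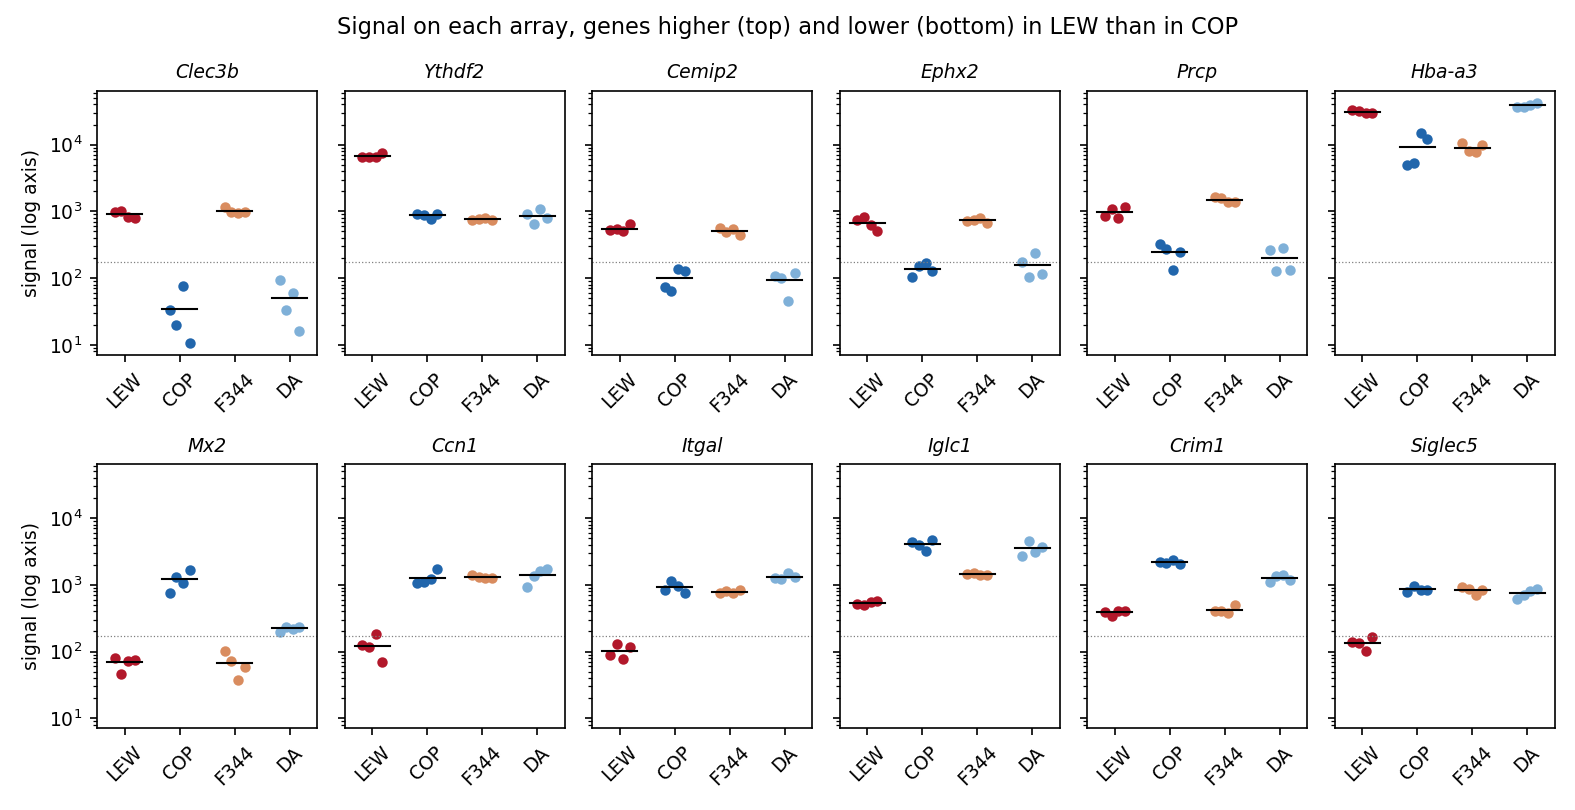
Signal on a log axis for each array of the 4 strains (points) with the strain mean (line), for 6 genes higher and 6 lower in LEW than in COP; the dotted line is the filter's signal of 173.5. The 12 come from genes named only if the LEW and COP arrays did not overlap. F344 and DA sided with LEW for some genes and with COP for others.

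Interferon response genes were lower in LEW. Of the 47 kept members of the list, 28 fell and 0 rose (59.6% lower, against 7.72% of all genes), and their median difference was -0.40 against -0.00922 over all genes. Antiviral effectors fell, among them Mx2 and Mx1 (-1.26), as did the ubiquitin-like modifier Isg15 (-1.45), its protease Usp18 (-1.36), the cytosolic RNA sensor Ifih1 (-0.61) and the RNA-activated kinase Eif2ak2 (-0.58). Some transcription factors that drive the response fell too, with Irf7 (-1.30), Irf8 (-0.38) and Irf9 (-0.35), while Irf1 (-0.16) and Stat2 (-0.25) were not called. Members without a call included Ifit1 (-0.44), Oasl (-0.52), Rsad2 (-0.06) and Cmpk2 (0.25), so not all members moved. At an unadjusted limma p under 0.05 the count was 32 lower and 2 higher. The count was 24 lower and 1 higher without LEW replicates 1 and 4, and 25 members were called lower whichever single array was left out.

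Isg15 showed the spread inside COP. It read 487, 271, 409 and 404 in LEW and 711, 1310.0, 850 and 1543.3 in COP (log2 difference -1.45, SE 0.2, limma adjusted p = 2.78e-05). COP replicates 2 and 4 were the high arrays, and Mx2, Usp18 and Ifi27l2b were also highest on these. Ifi27l2b read 969, 638, 949 and 703 in LEW and 1788.6, 2565.3, 2332.0 and 3070.2 in COP (log2 difference -1.58, SE 0.14, limma adjusted p = 6.40e-08). On the mean of the whole list the LEW arrays were at -0.32, -0.37, -0.22 and -0.26 and the COP arrays at 0.08, 0.39, 0.16 and 0.42. No F344 array was above 0.03, and DA ran from -0.06 to 0.09. LEW thus lay below, and 3 of the 4 COP arrays above, every F344 and DA array.

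Promoter letters are shown for the members of this list that hold an interferon-stimulated response element core before their start site. The letters searched were GAAA, any 2 bases, GAAA, on both strands, in a window of 250 bases before to 50 after each start, with promoters from RefSeq on the build GRCr8 and matched by gene identifier. Of the 47 members 36 had a promoter, and 23 of these (63.9%) held a match, as did 15 (75%) of the 20 called members with a promoter. Of all 27457 RefSeq promoters, 1034 (3.77%) held one, and of those of tested genes 2.96%. The match is a description of the reference genome's letters and not a measured site, and LEW and COP sequence was not analysed here. The 4 called members with the largest change that hold a match wholly before the start were chosen after their values were seen; Mx2, Ifi27l2b, Isg15 and Usp18, which changed more, were not among the promoters searched. Capitals mark the match, which reads TTTC, any 2 bases, TTTC where the element lies on the opposite strand.
Irf7 (chr1:205800058-205800117, minus strand): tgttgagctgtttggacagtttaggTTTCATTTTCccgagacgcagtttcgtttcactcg
Ifit3 (chr1:241527257-241527316, plus strand): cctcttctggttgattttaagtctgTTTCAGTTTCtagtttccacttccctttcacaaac
Ifi44 (chr2:243303841-243303891, minus strand): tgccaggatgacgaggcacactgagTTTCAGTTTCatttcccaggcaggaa
Ifi27 (chr6:128355118-128355262, plus strand): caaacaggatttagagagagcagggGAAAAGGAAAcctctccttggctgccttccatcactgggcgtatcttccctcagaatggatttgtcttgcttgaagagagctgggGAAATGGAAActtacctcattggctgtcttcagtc

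Irf7, the master regulator of interferon induction, carries the core close to its start and read 1041.5, 635, 811 and 913 in LEW and 1550.2, 2367.9, 1676.4 and 2954.4 in COP (log2 difference -1.30, SE 0.17, limma adjusted p = 1.02e-05). Ifit3, a binder of viral RNA complexes, differed by -1.22, and its LEW mean of 132 ± 10.3 (SD, n = 4) was under the filter's signal. Ifi44 fell from 727 ± 177 in COP to 359 ± 60.6 in LEW (SD, n = 4). Ifi27 fell by 0.83 on the log2 scale, from 17192.7 ± 1684.4 in COP to 9622.4 ± 626 in LEW (SD, n = 4). Mx1 fell without a match in this window.

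Red cell genes were higher in LEW. Of 36 kept erythroid genes 23 rose and 0 fell (63.9% higher, against 6.41% of all genes), with a median difference of 0.28. The rise covered heme synthesis (Alas2 (0.28), Alad (0.21), Urod (0.28), Cpox (0.54), Ppox (0.38) and Fech (0.28)), the membrane skeleton (Epb41 (0.38), Epb42 (0.30), Add2 (0.67) and Dmtn (0.44)), blood group proteins (Rhd (0.59) and Kel (0.30)) and the regulators Klf1 (0.39) and Tal1 (0.29) with the erythropoietin receptor Epor (0.26). Apart from Hba-a3 the called differences ran from 0.21 to 0.67, and the strains overlapped for Alad, Ppox, Kel, Tal1 and Epor. At an unadjusted limma p under 0.05 the count was 27 higher and 1 lower. Fewer cells of a type and less RNA per cell cannot be told apart in RNA of whole tissue.

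Cpox, the coproporphyrinogen oxidase of heme synthesis, read 18943.4, 17543.6, 17080.7 and 14260.3 in LEW and 10742.6, 11984.9, 12019.1 and 11734.0 in COP (log2 difference 0.54, SE 0.083, limma adjusted p = 8.12e-05). The LEW arrays were all higher, replicate 4 being the lowest of them. Hba-a3, an alpha globin copy, read 32719.6, 31881.1, 29868.9 and 29920.2 in LEW but 5011.3, 5234.2, 14986.1 and 12220.0 in COP (log2 difference 1.90, SE 0.24, limma adjusted p = 6.24e-06), with COP replicates 1 and 2 far below 3 and 4. Alpha globin copies are near-identical, so the probes may read more than 1 gene. The beta globin Hbb differed by 0.04 and was not called, and neither were Gata1 (0.25), Tfrc (0.10), Rhag (0.11) and Xk (-0.22). On the list mean LEW arrays were at 0.27, 0.11, 0.17 and -0.01 and COP arrays at -0.30, -0.16, -0.14 and -0.12. Without LEW replicates 1 and 4 the count was 19 higher and 0 lower, and without any single array it ran from 17 to 27 higher. The element AGATAA, the core bound by GATA factors, was searched on both strands, and 6 of 28 erythroid promoters (21.4%) held it, against 11.3% of all promoters and 6.08% of those of tested genes.

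Neutrophil genes moved the other way. Of 23 kept members of that list 10 fell (43.5%, against 7.72% of all genes) and 2 rose (8.7%, against 6.41%), with a median of -0.34, and COP was above LEW on every array of the list mean (LEW -0.13 to 0.02, COP 0.22 to 0.28). The oxidase subunits that make superoxide fell together, with Ncf1 (-1.27), Ncf4 (-1.04) and Cybb (-0.67). Of the granule proteins, ficolin B (Fcnb) read 5979.6, 6465.1, 6112.8 and 5379.7 in LEW and 12606.0, 13300.5, 15166.6 and 13272.9 in COP (log2 difference -1.18, SE 0.063, limma adjusted p = 2.21e-11), so COP held about 2.27-fold the LEW signal. The cathelicidin Camp (-0.61), the collagenase Mmp8 (-0.81), Pglyrp1 (-0.62) and Lcn2 (-0.45) also fell. The calcium-binding proteins S100a8 and S100a9 of the neutrophil cytosol differed by -0.16 and -0.12 and were not called. Padi4 (1.72) and Mmp9 (0.39) rose in LEW. F344 arrays were lowest of the 4 strains on this list, at -0.32 to -0.27.

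The list of mast cell, basophil and eosinophil genes moved in both directions. Eosinophil peroxidase (Epx) read 4080.9, 5365.5, 6870.9 and 4947.3 in LEW and 14671.3, 17724.6, 17308.8 and 17283.2 in COP (log2 difference -1.68, SE 0.12, limma adjusted p = 3.59e-09). The major basic protein of the eosinophil granule (Prg2) read 13807.3, 17392.0, 19095.5 and 15823.3 in LEW and 37189.3, 40082.4, 36569.2 and 35329.2 in COP (log2 difference -1.18, SE 0.09, limma adjusted p = 5.02e-09). Both were higher on each COP array, by 3.2-fold and 2.27-fold on average. Among mast cell genes the tryptases Tpsab1 (1.54) and Tpsb2 (0.76), carboxypeptidase Cpa3 (0.64) and chymase Cma1 (0.44) rose in LEW, while the protease Mcpt9 fell (-0.83). Over that list 4 of 18 rose (22.2%, against 6.41% of all genes) and 4 fell (22.2%, against 7.72%), with a median of -0.05. Without LEW replicates 1 and 4 only 2 rose.

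Monocyte and macrophage genes were split. Of 25 kept, 7 fell (28%) and 3 rose (12%), against 7.72% and 6.41% of all genes, with a median of -0.17. The inhibitory Fc receptor Fcgr2b read 580, 547, 630 and 591 in LEW and 1153.9, 1323.2, 1333.4 and 1308.8 in COP (log2 difference -1.12, SE 0.092, limma adjusted p = 1.38e-08). The chemokine receptor Ccr2 (-0.75), the adaptor Tyrobp (-0.52) and the complement chain C1qb (-0.43) fell, while the lectin Clec4a3 (0.66), the mannose receptor Mrc1 (0.28) and heme oxygenase Hmox1 (0.39) rose. General macrophage markers such as Cd68 (-0.02), Cd163 (0.04) and C1qa (-0.14) were not called. Over the Fc receptor and lectin list, which shares 8 of its 21 members with other lists, 8 fell (38.1%) and 2 rose (9.52%).

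The class II RT1 genes were higher in LEW, while other genes of class II presentation were not. All 6 class II and class II-like RT1 genes of the list rose, with RT1-Ba (1.18), RT1-Bb (0.94), RT1-Da (0.67), RT1-Db1 (0.72), RT1-DMa (0.28) and RT1-DMb (0.65). RT1-Bb, a beta chain, read 1895.8, 1604.0, 2060.5 and 1701.7 in LEW and 992, 889, 944 and 942 in COP (log2 difference 0.94, SE 0.082, limma adjusted p = 4.17e-08). F344 averaged 3342.3 and DA 1764.5, so COP was the low strain. The invariant chain Cd74 (-0.03) and the transactivator Ciita (0.23) were not called, and the accessory genes Cd83 (-0.34), Ifi30 (-0.23) and Ctss (-0.20) fell. Over the list 6 of 14 rose (42.9%) and 3 fell (21.4%), against 6.41% and 7.72% of all genes; without LEW replicate 2 only 1 fell. The other probe set of RT1-Db1 gave 2.72 against 0.72, with a COP mean of 72.1, under the filter's signal. Strain sequence under the class II probes was not tested.

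Class I genes went both ways. RT1-T24-4 (-3.49), RT1-CE16 (-2.71), RT1-A (-0.83) and RT1-CE10 (-0.83) fell, and RT1-CE5 (2.47), RT1-CE12 (0.75) and RT1-T24-3 (0.72) rose. RT1-CE5 read 1529.3, 1533.8, 1723.2 and 1721.8 in LEW and 230, 337, 362 and 264 in COP (log2 difference 2.47, SE 0.16, limma adjusted p = 5.56e-10), with F344 at 332 and DA at 281. Class I genes are near-identical to each other and differ between strains in sequence and number, so a probe set may read several of them and these values are uncertain as values of single genes. The peptide loading machinery fell in part: the transporter Tap2 (-1.03), the immunoproteasome subunits Psmb9 (-0.84), Psmb8 (-0.62) and Psmb10 (-0.33) and the trimming peptidase Erap1 (-0.38). Tap1 (-0.02), B2m (-0.01) and Tapbp (-0.03) were not called. Over the list 10 of 23 fell (43.5%, against 7.72% of all genes) and 3 rose (13%, against 6.41%).

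Lymphoid genes differed at single members. In the B lymphoid list 3 of 12 fell (25%, against 7.72% of all genes) and 1 rose (8.33%, against 6.41%). The B-cell kinase Blk read 609, 618, 542 and 472 in LEW and 1194.9, 943, 1117.8 and 1401.5 in COP (log2 difference -1.05, SE 0.16, limma adjusted p = 6.65e-05), and its other probe set gave -1.12. Btk (-0.28) fell, while the pre-B receptor chain Vpreb3 rose (0.54) and Cd79b (-0.24) was not called. Without LEW replicates 1 and 4 only 1 member fell. Of 9 kept T and natural killer cell genes 3 fell (33.3%), Il2rb (-1.22), Nkg7 (-0.82) and Lck (-0.40), and 0 rose. The list mean of these 9 was -0.27 to -0.11 in LEW and 0.10 to 0.20 in COP.

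**Figure D3:**
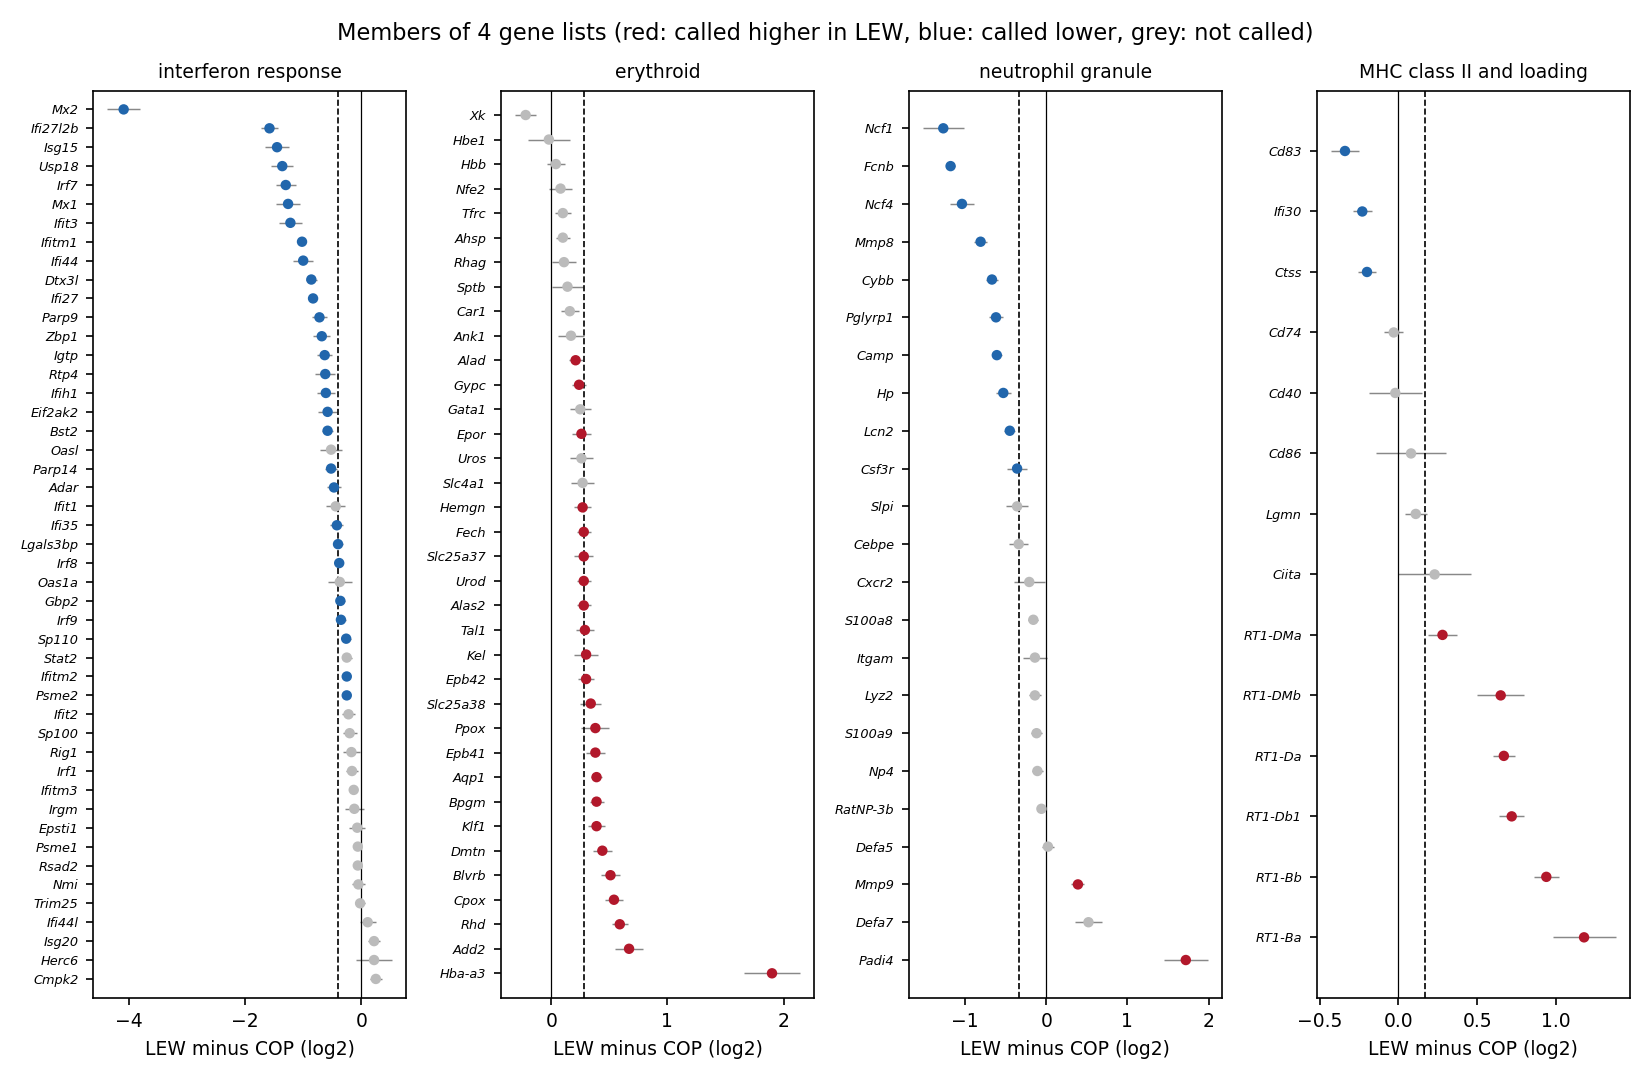
LEW minus COP log2 difference of each kept member of 4 gene lists (points) with its SE (bars); the dashed line is the list median. Of 47 interferon response genes 28 were called lower and 0 higher in LEW, and of 36 erythroid genes 23 were called higher and 0 lower.

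Osteoblast, osteocyte and cartilage genes had few calls, and all genes were called higher in 6.41% and lower in 7.72%. Of 25 osteoblast and bone matrix genes 1 rose and 1 fell, of 10 osteocyte and phosphate genes limma called 0 (3 higher and 1 lower at an unadjusted p under 0.05), and of 21 growth plate cartilage genes 1 rose and 0 fell. Their medians were 0.01, 0.16 and -0.03. The bone proteins Col1a1 (0.01), Bglap (0.01), Ibsp (-0.08) and Spp1 (-0.10) were not called, and neither were the cartilage collagens Col2a1 (-0.03) and Col10a1 (-0.06). The exceptions were named enzymes and secreted proteins. Enpp1, which makes the mineralisation inhibitor pyrophosphate, read 1512.2, 1848.9, 1514.2 and 2164.7 in LEW and 4765.8, 3896.4, 4453.8 and 3706.5 in COP (log2 difference -1.27, SE 0.099, limma adjusted p = 7.91e-09). All LEW arrays were below all COP arrays, and F344 (2124.9) lay nearer LEW.

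Cthrc1, a secreted collagen triple helix repeat protein, read 10831.6, 12976.4, 12306.5 and 16979.7 in LEW and 10358.3, 8961.9, 8045.1 and 8047.8 in COP (log2 difference 0.57, SE 0.099, limma adjusted p = 3.01e-04). Its LEW value was highest on replicate 4 and its COP value on replicate 1, the arrays with the most cartilage signal. Papss2, which makes the sulfate donor of cartilage proteoglycans, read 3101.7, 4213.9, 3227.2 and 4652.8 in LEW and 2976.8, 2401.9, 2049.3 and 1728.7 in COP (log2 difference 0.74, SE 0.14, limma adjusted p = 5.58e-04), with the same array highest in each strain. Its other probe set gave 0.15, and the mean of both was not called. The part of the cartilage signal in these 2 results was not tested. Cthrc1 and Papss2 stayed called when any single array was left out, with limma adjusted p up to 0.00187 and 0.0033. Leaving out a single array does not remove the spread of the cartilage signal, so these calls do not bear on its part. Without LEW replicate 4, 3 cartilage genes were called lower in LEW.

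Of 16 osteoclast genes 4 fell (25%, against 7.72% of all genes) and 1 rose (6.25%, against 6.41%). The falls were Src (-0.34), Nfatc1 (-0.32), Plekhm1 (-0.32) and Atp6v1c1 (-0.25), with limma adjusted p from 0.0146 to 0.0477. Only 1 was called lower without COP replicate 1, and 2 without COP replicate 3 or LEW replicate 1, 2 or 3. With LEW replicates 1 and 4 both left out, 1 was called lower. Of the defining osteoclast markers, the resorption enzymes Ctsk (-0.21) and Acp5 (-0.14) were not called, and Calcr did not pass the filter. Mmp9, given above with the neutrophil genes, is also such a marker and was higher in LEW (0.39, limma adjusted p = 0.00285). Of 30 collagen chains 2 rose (6.67%) and 3 fell (10%), near the 6.41% and 7.72% of all genes. They were led by Col4a2 (0.63), a basement membrane chain, and Col8a1 (-0.58). Only 1 chain fell without LEW replicate 1, 5 without LEW replicate 4 and 1 without both. Among collagen-processing enzymes P4ha3, a prolyl hydroxylase subunit, read 605, 723, 863 and 885 in LEW and 2043.7, 1890.9, 1925.2 and 2241.4 in COP (log2 difference -1.41, SE 0.11, limma adjusted p = 5.00e-09). P3h3 fell as well (-0.60), and 3 of 21 of these enzymes fell in all (14.3%, against 7.72% of all genes).

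**Figure D4:**
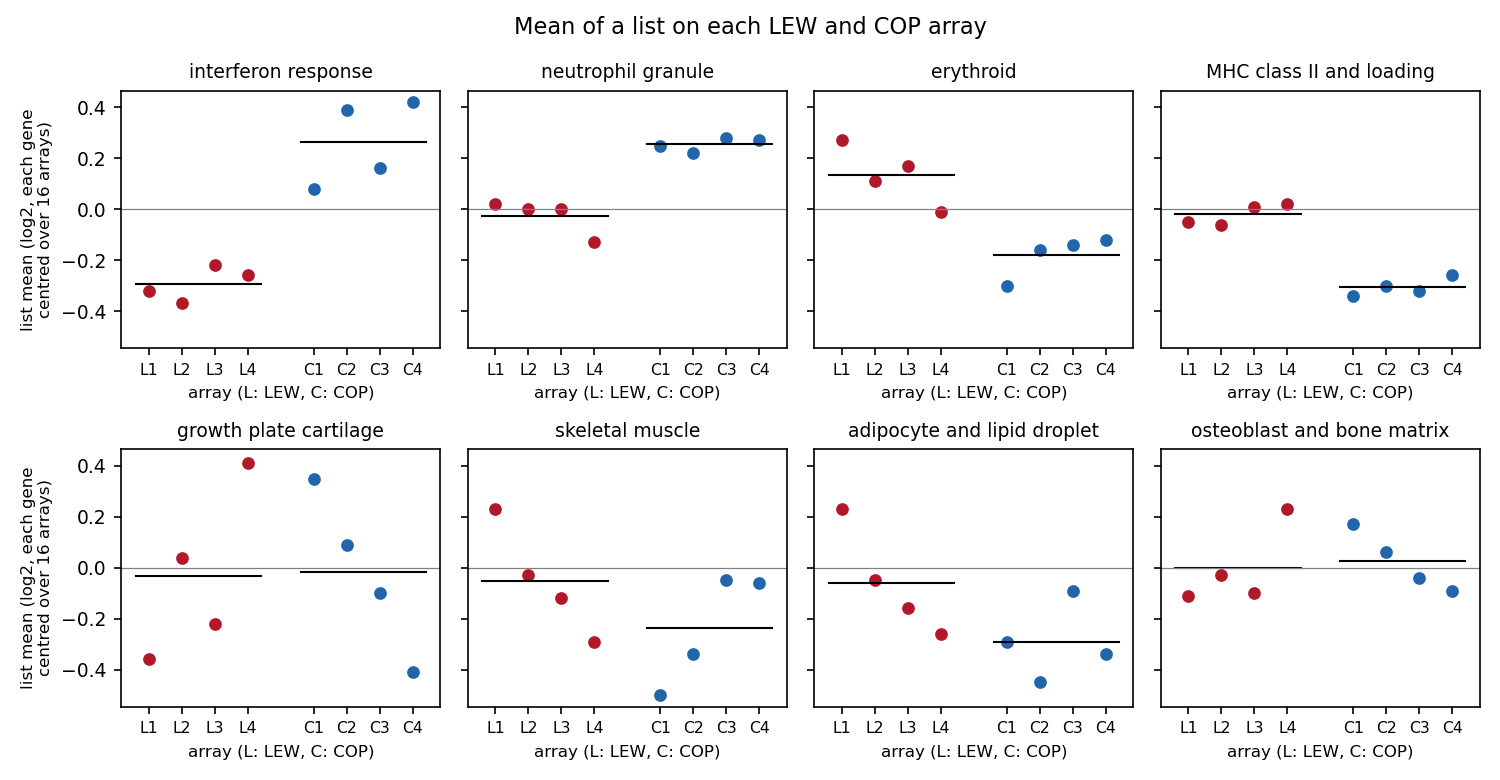
Mean of 8 gene lists (log2, each gene centred over 16 arrays) on each LEW (L1 to L4) and COP (C1 to C4) array, with the strain mean as a line. The interferon, neutrophil, erythroid and class II lists separate LEW from COP, whereas the cartilage list runs from -0.36 to 0.41 inside LEW and from -0.41 to 0.35 inside COP.

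The growth hormone and insulin-like growth factor axis differed at a few strong members. Igf1, the growth factor that lengthens bone, read 11686.6, 13305.1, 14394.3 and 14689.1 in LEW and 8634.2, 7607.2, 7888.6 and 7971.7 in COP (log2 difference 0.75, SE 0.081, limma adjusted p = 9.40e-07), and its other probe sets gave 0.50 and 0.22, both called. LEW was the high strain, since F344 averaged 7762.0 and DA 7098.7. Socs2, the feedback inhibitor of growth hormone signalling, read 138, 53.9, 111 and 104 in LEW and 510, 452, 484 and 431 in COP (log2 difference -2.28, SE 0.25, limma adjusted p = 8.79e-07). The LEW values lay under the filter's signal, and F344 (203) and DA (190) were nearer to LEW. Igf2 (0.68), the insulin receptor Insr (0.72) and the RNA-binding protein Igf2bp3 (0.88) rose and Igfbp6 fell (-0.27), although the Insr arrays of the strains overlapped. The receptors Igf1r (-0.18) and Ghr (-0.09) were not called. Over the list 4 of 18 rose (22.2%, against 6.41% of all genes) and 2 fell (11.1%, against 7.72%), with a median of 0.02.

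Of 51 genes of the BMP and TGF-beta pathways 5 fell and 1 rose, 9.8% and 1.96% against 7.72% and 6.41% of all genes, so the counts do not set these pathways apart and only single members are described. Bmp4, a bone-inducing ligand, read 447, 378, 398 and 530 in LEW and 878, 924, 772 and 796 in COP (log2 difference -0.95, SE 0.11, limma adjusted p = 3.51e-06), and COP was above both other strains too, with F344 at 515 and DA at 417. The type I receptor Bmpr1a fell (-0.72), as did the co-receptor Tgfbr3 (-1.80), whose arrays overlapped, and the inhibitor Id4 (-0.37) and mediator Smad9 (-0.31). Without LEW replicate 4, 8 genes of this list fell. Of 34 Wnt genes 4 fell and 2 rose, 11.8% and 5.88%, also near the shares of all genes: the co-receptor Lrp6 (-0.77), the secreted antagonist Sfrp1 (-0.59), the receptor Fzd8 (-0.45) and the ligand carrier Wls (-0.36) fell, the last not called without 1 of the arrays (limma adjusted p = 0.0583), and the co-receptor Lrp4 (0.49) and the transcription factor Lef1 (0.29) rose. Lrp6, encoded on chromosome 4, read 626, 511, 626 and 481 in LEW and 1046.8, 931, 848 and 982 in COP (log2 difference -0.77, SE 0.12, limma adjusted p = 1.21e-04).

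Cytokine and chemokine genes, where called, were lower in LEW. In the list of RANKL, tumour necrosis factor and interleukin genes 7 of 29 fell (24.1%, against 7.72% of all genes) and 0 rose (9 and 1 at an unadjusted limma p under 0.05), among them the interleukin 1 decoy receptor Il1r2 (-1.26), the interleukin 17 receptor Il17ra (-0.44) and the interleukin 6 receptor Il6r (-0.77). Il6r read 555, 510, 575 and 583 in LEW and 930, 900, 945 and 1003.9 in COP (log2 difference -0.77, SE 0.09, limma adjusted p = 3.02e-06). RANKL itself (Tnfsf11) differed by 0.00 and its decoy Tnfrsf11b by -0.17, and neither was called. Of 19 chemokine genes 4 fell (21.1%) and 0 rose, with Ccl6 at 2510.2, 1988.2, 2260.6 and 1803.9 in LEW and 5411.8, 5420.1, 5120.1 and 5138.6 in COP (log2 difference -1.31, SE 0.091, limma adjusted p = 1.42e-09). Cxcl9, which interferon gamma induces, fell by 0.86 on the log2 scale, and its other probe set gave -1.31. Of 20 complement genes 5 fell (25%) and 2 rose (10%, against 6.41% of all genes), led by C3 (-0.60) and the receptor chain Itgax (0.83). The count of falls was 3 without LEW replicate 1, 3 or 4 or COP replicate 4.

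Fat and muscle genes varied with the array. The brown fat uncoupling protein Ucp1 read 2812.8, 753, 287 and 297 in LEW and 266, 93.6, 159 and 75.8 in COP (log2 difference 2.31, SE 0.55, limma adjusted p = 0.00596). LEW replicate 1 was far above the other LEW arrays, and LEW replicate 2 was above LEW replicates 3 and 4. Scd, a desaturase of fat synthesis, read 4048.6, 3435.9, 3332.3 and 2550.9 in LEW and 1547.6, 975, 2223.5 and 871 in COP (log2 difference 1.33, SE 0.2, limma adjusted p = 5.68e-05). Of 30 adipocyte genes 5 rose (16.7%, against 6.41% of all genes) and 1 fell (3.33%, against 7.72%). The others were Adipoq (0.56), Plin1 (0.55), Fabp4 (0.48) and Cfd (-0.20), while Pparg (-0.17) and Lipe (-0.15) were not called. Without COP replicate 3 or LEW replicate 4, 8 adipocyte genes rose. The list mean was 0.23, -0.05, -0.16 and -0.26 in LEW replicates 1 to 4 and -0.29, -0.45, -0.09 and -0.34 in COP replicates 1 to 4. Of 42 muscle genes 3 rose (7.14%, near the share of all genes) and 0 fell, 9 rose without LEW replicate 4 and 1 without LEW replicate 1. The muscle list mean was 0.23, -0.03, -0.12 and -0.29 in LEW and -0.50, -0.34, -0.05 and -0.06 in COP. The part of attached fat and muscle in the fat genes was not tested.

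Of 40 glutathione, antioxidant and xenobiotic genes 11 rose (27.5%, against 6.41% of all genes) and 5 fell (12.5%, against 7.72%). Besides Ephx2 and Gstt3, the transferases Gsto1 (0.52) and Gsta4 (0.52), the glutathione synthesis subunits Gclc (0.37) and Gclm (0.29), catalase (0.31) and peroxiredoxin 2 (0.24) rose. Aldh1a1 (-0.72) and Nqo1 (-0.45) fell. The higher count was 7 without LEW replicate 1 or COP replicate 1 and 6 without LEW replicates 1 and 4. In a pair of groups that every cell uses, limma called 0 of 56 oxidative phosphorylation genes (5 higher and 0 lower at an unadjusted p under 0.05) and 0 of 37 cytosolic ribosomal protein genes (1 and 0), against 14.1% of all genes, although 3 oxidative phosphorylation genes rose without LEW replicate 4.

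Chromosome 4, the chromosome of the study's question, held 606 tested genes, of which 95 (15.7%) were called, 45 higher and 50 lower in LEW, against 14.1% of all genes. Shares of other chromosomes ran from 9.18% on X to 21% on chromosome 13. LEW is a parent of the cross that gave the locus and COP is not. In blocks of 101 genes in chromosome order, the share called was 13.9% from Dnajb6 to Foxp2, 14.9% from Mdfic to Rarres2, 18.8% from Repin1 to Htra2, 6.93% from Aup1 to Crbn, 19.8% from Setmar to Cops7a and 19.8% from Zfp384 to Resf1. Positions are the order in a gene table of the assembly GRCr8, since no build was given for the array.

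Klhl42, which brings substrates to a cullin ubiquitin ligase, read 1538.8, 1781.4, 1502.1 and 1505.2 in LEW and 367, 299, 335 and 403 in COP (log2 difference 2.18, SE 0.13, limma adjusted p = 1.41e-10). DA (1648.4) was at the LEW level and F344 (313) at the COP level, but the other probe set of the gene gave 0.08 and was not called. The 2 probe sets therefore disagree on whether Klhl42 differed, and strain sequence under the probes was not tested. Dnajb6, an anti-aggregation co-chaperone, read 7233.1, 6883.0, 7210.3 and 7634.6 in LEW and 2522.0, 2974.3, 2824.7 and 2417.0 in COP (log2 difference 1.44, SE 0.075, limma adjusted p = 1.83e-11). F344 (4227.0) and DA (2298.2) were below LEW too. Cped1, which lies in a region linked to bone density in people, read 268, 244, 307 and 262 in LEW and 634, 564, 891 and 623 in COP (log2 difference -1.31, SE 0.18, limma adjusted p = 1.66e-05), and COP was the high strain, with F344 at 248 and DA at 306. Art4, which carries the Dombrock blood group, rose by 1.30, and Inmt, an amine methyltransferase, fell by 1.35 on the log2 scale.

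The remaining large differences on chromosome 4 were Usp18 (-1.36), Cyren (0.91), Igf2bp3 (0.88), Nom1 (0.85), Mrps35 (0.83), Osbpl3 (0.81) and Fscn3 (0.81). Lack of overlap between the strains was a condition of this ranking. The other probe sets of Nom1 and Osbpl3 gave 0.22 and 0.02 and were not called. Of 28 genes in the list of bone-related chromosome 4 genes, 4 rose (14.3%, against 6.41% of all genes) and 2 fell (7.14%, against 7.72%), with a median of -0.02. The cell cycle inhibitor Cdkn1b read 19420.6, 17359.8, 18979.4 and 15943.2 in LEW and 12947.7, 13233.5, 13083.7 and 11578.1 in COP (log2 difference 0.49, SE 0.079, limma adjusted p = 1.26e-04). Npy (0.48) and Ptprz1 (0.35) rose with Klhl42, and Cped1 and Lrp6 fell. Without LEW replicate 4, 4 fell. Col1a2 (0.05), Dlx5 (-0.02) and Mgp (0.05) were not called.

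**Figure D5:**
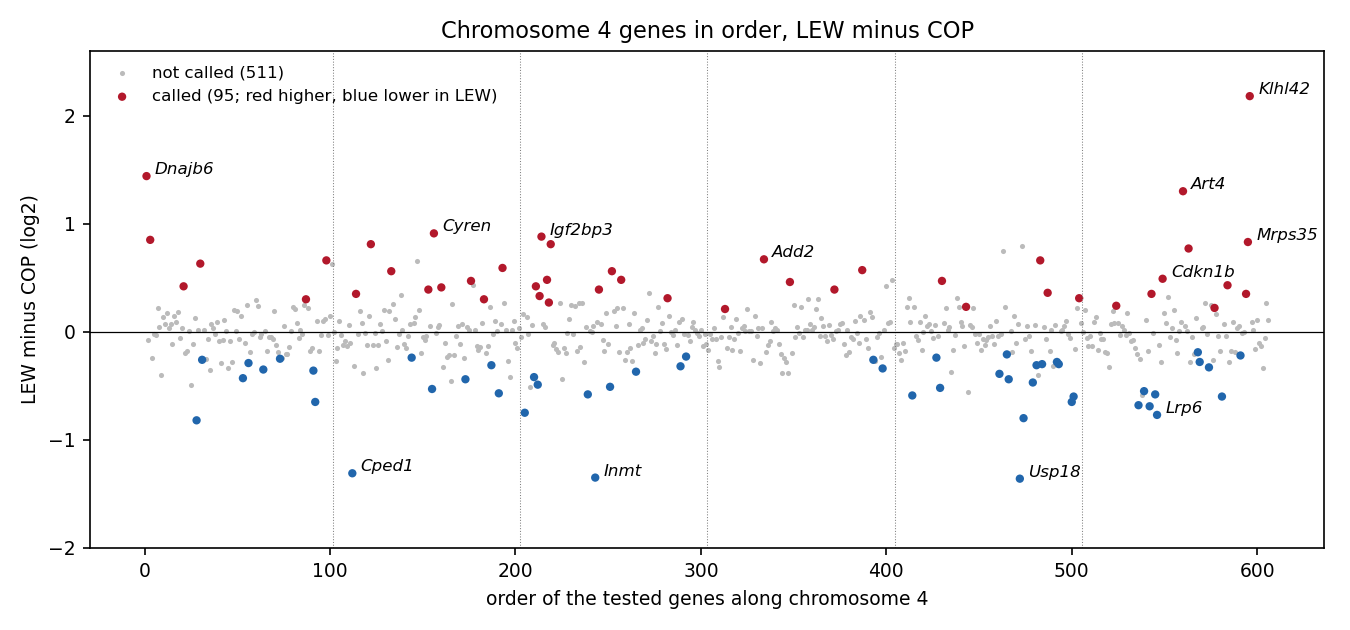
LEW minus COP log2 difference of the 606 tested chromosome 4 genes in chromosome order, with 95 called genes in colour (45 higher in LEW in red, 50 lower in blue) and dotted lines between blocks of 101 genes. Klhl42 at 2.18 near the end and Dnajb6 at 1.44 at the start are the highest, Usp18 at -1.36 the lowest.

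The strains outside the contrast placed each difference. Of the 1490 called genes, F344 and DA both lay nearer LEW for 509 (34.2%), both nearer COP for 339 (22.8%), F344 nearer LEW with DA nearer COP for 360 (24.2%), and the reverse for 282 (18.9%). Over all tested genes these shares were 32.1%, 25.6%, 21.9% and 20.4%, so each share of the called genes was near that of all genes. Among the 130 genes changed at least 2-fold, F344 and DA both lay nearer COP for 39 (30%) and both nearer LEW for 42 (32.3%). F344 lay nearer LEW with DA nearer COP for 34 (26.2%), and the reverse held for 15 (11.5%). Of the 95 called genes of chromosome 4, F344 and DA both lay nearer COP for 33 (34.7%, against 25.6% of all tested genes). Both lay nearer LEW for 22 (23.2%, against 32.1%). A side does not show that 1 strain stood apart. RT1-Ba had both nearer LEW, yet F344 averaged 2154.0 and LEW 909.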

How the data were processed

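Total RNA of the proximal femur (5 ug per sample, per the labels' protocols) was hybridised to Affymetrix rat expression arrays. The deposited intensity values are 1 linear signal per probe set and array, made by the authors with MAS5, per the submitters' processing notes; its version and scaling target are not given in the sources used here. Every array's 2% trimmed mean was 1000, which shows scaling before deposit, and array medians ran from 302.8 to 324.6. This scaling fixes an array's level but not its shape, and dim signals carry more noise. Of 31099 probe sets 57 controls were left out; 20826 of the rest had 1 symbol, 436 several and 9780 none in the platform's annotation, and 20764 identifiers matched a RefSeq table of GRCr8. Signals below 1 were set to 1 (255 values) before log2. Of the others, 18625 had a mean at or above the 40th percentile (signal 173.5) and were tested.

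limma 3.58.1 (R 4.3.3) fitted a mean per strain to all 16 arrays, with an intensity trend and 12 residual degrees of freedom. LEW minus COP was tested two-sided, with Benjamini-Hochberg adjustment over all kept probe sets and a threshold of 0.05. Where a gene had several kept probe sets, the one with the highest mean stands for it. The 44 gene lists hold 1531 symbols, of which 1232 were on the array and 1047 were kept. They are described by counts and medians, with no test. Named genes are the 15 largest rises and 15 largest falls, the 12 largest changes on chromosome 4 and up to 4 per list, among called genes of 1 symbol without overlap of the strains; a numbered locus on chromosome 4 was skipped, and other genes were named after their values were seen, to show list members with and without a call. Of the called genes named in this way, Alad, Ppox, Kel, Tal1, Epor, Insr, Tgfbr3, Mmp9, RT1-T24-3, Lrp4, Fabp4, Cat, Atf3, Eif2ak2 and Fos overlapped between the strains. Members, lists and rules were chosen with earlier results of these data known. Alternatives were quantile normalization, median centring, a pseudocount of 19.3, no filter or one at the 60th percentile, no trend, robust eBayes, weights per array, a replicate block, LEW and COP alone, an adjusted p under 0.10, averaging over the probe sets of each gene and leaving out each array. Leaving out LEW replicates 1 and 4 together was added after seeing the data. The fit was tested on simulated data. Python 3.11.15 and matplotlib 3.10.9 drew the figures.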

Additional observations from a re-analysis of the deposited data

Results flagged for a closer look

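In 20 of 372 groups of 4 arrays tested, 1 array lay far from the other 3: the gap to the nearest exceeded Dixon's 95% critical value for 4 samples. Chance gives this in about 1 in 20 groups, so the number flagged is near the number that chance gives. On COP replicate 1 the outlying signals were Dnaja4 at 3817.7 (other COP arrays 4498.2 to 4622.9), Epx at 14671.3 (other COP arrays 17283.2 to 17724.6), Fcgr2b at 1153.9 (other COP arrays 1308.8 to 1333.4), Myo1g at 1442.6 (other COP arrays 1548.4 to 1558.3), and Nfatc1 at 2572.4 (other COP arrays 1932.6 to 2023.1). On LEW replicate 4 the outlying signals were Cxcl9 at 351 (other LEW arrays 235 to 251), Il17ra at 2553.0 (other LEW arrays 3183.6 to 3232.4), and Ythdf2 at 7506.4 (other LEW arrays 6448.8 to 6488.2). On other arrays they were Ccr2 at 606 on COP replicate 3 (others 511 to 520), F2rl2 at 382 on LEW replicate 3 (others 260 to 276), Haghl at 31.4 on COP replicate 3 (others 97.6 to 106), Il1r2 at 647 on LEW replicate 3 (others 367 to 411), Klhl42 at 1781.4 on LEW replicate 2 (others 1502.1 to 1538.8), and Xist at 14393.3 on LEW replicate 2 (others 12612.5 to 12883.7).

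Among list means (log2, centred over 16 arrays), the osteocyte and phosphate list was at 0.30 on LEW replicate 4 (others 0.02 to 0.03), the hedgehog and parathyroid hormone-related protein list was at 0.25 on LEW replicate 4 (others -0.06 to -0.03), the T and natural killer cell list was at 0.10 on COP replicate 4 (others 0.19 to 0.20), the neutrophil granule list was at -0.13 on LEW replicate 4 (others 0.00 to 0.02), the endothelial list was at 0.00 on COP replicate 2 (others 0.04 to 0.05), and the chemokines list was at 0.05 on COP replicate 4 (others 0.13 to 0.14). LEW replicate 4 accounted for 3 of the 6 list means, and it is the array with the highest cartilage and lowest erythroid list mean of LEW. No cause was tested.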

How the results depend on the processing

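The counts of probe sets and genes called in each direction, on all chromosomes and on chromosome 4, moved by at most 1.5 times under each of 20 alternatives and an adjusted p under 0.10. Genes called higher ran from 497 to 878 and lower from 559 to 1102, and leaving out each array in turn gave 569 to 766 and 685 to 841. Chromosome 4 counts ran from 39 to 55 higher and from 38 to 66 lower. With the replicate block 1130 probe sets were called higher and 1327 lower, against 1164 and 1395 without it. Same-numbered LEW and COP arrays did not deviate together (correlations of -0.173 to 0.00953), so the numbers were not taken as pairs. Of 142 named genes 119 were called in the same direction under every alternative and 0 reversed, and 23 lost their call under at least 1, among them Plekhm1, Ptprb, Src, Xist, Smad9, Nrp1, Nfatc1 and Btk. Leaving out a single array ended the call of Atp6v1c1, Btk, Col8a1, Id4, Ier3, Itgb2, Myo1g, Nfatc1, Nrp1, Plekhm1, Ptprb, Smad9, Src, Wls and Xist, and, of the other called genes in the text, of Alad, Atf3, Cd83, Cfd, Cma1, Ctss, Eif2ak2, Epor, Fos, Gclm, Igfbp6, Kel, Lef1, Lrp4, Ppox, Ptprz1, RT1-DMa and Tal1. Averaging a gene's probe sets ended 7 calls, including Osbpl3 and Papss2. The removal of LEW replicates 1 and 4 together, chosen after seeing the data, ended 15. With 4 arrays per strain the number of arrays limits the precision, and signals under 173.5 rank poorly, so the folds of the 42 called genes with a strain mean under it are rough, among them Clec3b, Cemip2, Ephx2, Anks1b, Ucp1, Haghl, Padi4, Shld1, Cyren, Mx2, Ccn1, Itgal, RT1-CE16, Siglec5, Socs2, Cd244l1, Inmt, Il2rb and Ifit3. In 5 simulated tables for LEW minus COP, 200 of 18625 probe sets were changed and independent normal noise was drawn. The same fit recovered 53.5% of log2 changes of 0.5 and 91.5% of changes of 1. In the data 13.7% of probe sets were called, and the adjusted p depends on the share that changed. These recoveries therefore hold for the simulated setting only.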

Other observations

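Some proliferation genes were higher in LEW. Of 56 cell cycle genes 8 rose (14.3%, against 6.41% of all genes) and 3 fell (5.36%, against 7.72%), with a median of 0.12. Thymidylate synthase (Tyms) read 2377.8, 2277.7, 2591.3 and 2200.6 in LEW and 1269.8, 1438.6, 1405.2 and 1520.8 in COP (log2 difference 0.75, SE 0.08, limma adjusted p = 7.63e-07), and the kinetochore protein Cenpf (0.70) and the inhibitor Cdkn1a (0.86) rose. The count of rises in the cell cycle list was 4 without LEW replicate 1 and 13 without LEW replicate 4. Only 4 members were called higher whichever single array was left out. Without LEW replicates 1 and 4, 7 rose and 1 fell. Of 20 platelet and megakaryocyte genes 2 rose (10%) and 3 fell (15%), and 4 rose without LEW replicate 4. Tubb1, the tubulin of platelets, read 6170.8, 5487.3, 7098.3 and 5645.0 in LEW and 2374.9, 3333.3, 2849.2 and 2963.2 in COP (log2 difference 1.09, SE 0.095, limma adjusted p = 3.98e-08), while the platelet chemokine Ppbp (-0.69) and the thrombin receptor F2rl2 (-0.82) fell. Of 26 endothelial genes 2 rose (7.69%) and 4 fell (15.4%), but 2 fell without COP replicate 4 and 1 without LEW replicates 1 and 4. The junction protein Cldn5 was at 2207.9 ± 211 in LEW and 4274.3 ± 399 in COP (SD, n = 4), a log2 difference of -0.95.

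Of 23 immediate early genes 4 fell (17.4%, against 7.72% of all genes) and 2 rose (8.7%, against 6.41%). Ccn1, Fos (-0.63), Egr1 (-0.41) and Ier3 (-0.42) fell, and Dusp1 (0.81) and Atf3 (0.88) rose. Without LEW replicate 1 or COP replicate 3, 2 fell. Of 32 matrix protease and inhibitor genes 6 fell (18.8%) and 1 rose (3.12%), with A2m (-0.80), Adam8 (-0.70) and Plaur (-0.70) among the falls. Of 21 integrin chains 3 fell (14.3%) and 1 rose (4.76%), and of 29 chaperone genes 4 rose (13.8%) and 2 fell (6.9%). The lists of fibroblast and vascular growth factors (2 higher and 2 lower of 28, 7.14% each), cholesterol and fatty acid handling (2 and 2 of 29, 6.9% each), unconventional myosins (2 and 2 of 12, 16.7% each) and amino acid transporters (2 and 0 of 20, 10% higher) had few calls. So had cytochrome P450 (0 and 1 of 14, 7.14% lower), the proteasome (0 and 1 of 30, 3.33% lower), Gimap GTPases (0 and 1 of 5, 20% lower) and hedgehog signalling (0 and 0 of 8 by limma, and 0 at an unadjusted p under 0.05). Of the 2 kept sex-linked genes 1, Xist, was called lower, with a difference of -0.26. It was high on all 8 arrays, at 12612.5 to 16491.3. Its 3 other probe sets were not called, and it lost its call without some single arrays (limma adjusted p up to 0.101). The Y-linked genes Eif2s3y and Sry averaged 7.53 and 55.6 over the 8 arrays, and Uty averaged 67.2 and 2496.2 on its probe sets. The labels name no sex, and the sex of the rats was not tested. The glial gene Gfap was above the filter and read 282 ± 45.7 in LEW and 592 ± 30.3 in COP (SD, n = 4; limma adjusted p = 2.95e-07).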
